A study of Mus musculus with 27 samples.

Results

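The transcript assembler that made these tables lists, beside annotated genes, loci to which it could give no gene name. The unannotated loci of the inhibitor experiment are described here. They were chosen in 10 RNA-seq libraries from Setdb1 cKO iMEFs, immortalized mouse embryonic fibroblasts in which 4OHT deletes Setdb1. Each listed row without a gene name, with status OK and at least 1 FPKM was taken, and overlapping rows were merged across libraries into 7135 regions. FPKM is the number of sequenced fragments per kilobase of transcript and per 1000000 fragments of the library. The 4006 regions with a row in at least 2 libraries were kept, and the 3129 seen in 1 library were not. A region's value in a library was the highest FPKM of its rows, or 0 where it had none. The regions were chosen by their FPKM in these same libraries, so their presence and levels here are a description.

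The 5 conditions had 2 libraries each. They were untreated cells, cells given 1 µM of the MEK inhibitor PD0325901 for 24 h, cells given 150 nM of the histone deacetylase inhibitor TSA for 24 h, cells at day 6 of 4OHT, and cells at day 6 of 4OHT that also received PD0325901. All carried the conditional Setdb1 allele, and the cells were a single recloned line. The labels do not say whether libraries of a condition came from separate cultures, so p-values measure only the spread between these libraries, which may be technical. The whole series holds 27 samples. The 8 siRNA libraries and 9 total RNA libraries took no part in choosing the regions and serve below as separate measurements.

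Setdb1 methylates histone H3 at lysine 9 and keeps many endogenous retroviruses (ERVs) silent. VL30 elements are a mouse ERV family whose long terminal repeats (LTRs) start transcription. They are sorted into U3 classes by the sequence of the U3 segment of the LTR, which holds the promoter. MEK activates the ERK kinases, whose targets include AP-1 and Ets family transcription factors, and TSA raises histone acetylation. Gene annotations rarely list ERV copies, so their RNA falls among unannotated loci when an assembler is used.

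The first 300 bases of VL30 U3 class I element #9, a copy with RNA in the TSA and 4OHT libraries, lie at chr2:75476160-75476459 on the plus strand of mm9. They are shown because they hold a stretch found below in 40 of 71 class I elements and in no element of the other listed families. Capitals mark the 11 letters GGATATGACTC, here and in the next set.
#9: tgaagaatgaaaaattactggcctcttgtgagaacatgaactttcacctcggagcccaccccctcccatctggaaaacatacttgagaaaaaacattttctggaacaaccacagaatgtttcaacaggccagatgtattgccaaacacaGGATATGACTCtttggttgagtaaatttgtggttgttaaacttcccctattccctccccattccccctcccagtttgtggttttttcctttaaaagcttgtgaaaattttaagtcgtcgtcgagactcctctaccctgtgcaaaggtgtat

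The same stretch is shown for the 4 class I elements with the highest level per kilobase at day 6 of 4OHT, at chr11:86629726-86629765 (minus strand), chr6:133669235-133669274, chr2:75476293-75476332 and chr2:81829139-81829178 (plus strand).
#38: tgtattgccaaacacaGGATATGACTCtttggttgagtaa
#23: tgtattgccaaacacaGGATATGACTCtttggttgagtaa
#9: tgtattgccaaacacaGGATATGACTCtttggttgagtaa
#11: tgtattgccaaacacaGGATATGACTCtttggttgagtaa

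Beside them stand 4 elements of at least 2000 bp that lack the 11 letters but hold ATGACTC near their start, here in capitals. They are not the highest without the 11 letters. Elements #65 and #61, of similar length, also lack the 11 letters in their first 300 bases and had higher levels at day 6 of 4OHT. They are not shown, and whether they hold ATGACTC near their start is not reported here. The 4 shown lie at chr17:35615287-35615326 (plus), chr7:55998942-55998981 (minus), chr1:25071791-25071830 (plus) and chr13:66872941-66872980 (minus).
#63: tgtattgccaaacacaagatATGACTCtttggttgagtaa
#27: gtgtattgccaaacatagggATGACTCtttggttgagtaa
#2: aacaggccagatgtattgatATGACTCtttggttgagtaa
#48: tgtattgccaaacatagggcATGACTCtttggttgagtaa

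Another set shows short regions with very high FPKM, on the plus strand of mm9. The first and second are among the 5 regions with the highest mean FPKM. The third overlaps a VL30 U3 class II element and the fourth lies in an exon of C130026I21Rik.
chr13:44964939-44965019: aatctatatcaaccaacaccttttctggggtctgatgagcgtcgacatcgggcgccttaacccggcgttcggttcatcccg
chr16:57391221-57391304: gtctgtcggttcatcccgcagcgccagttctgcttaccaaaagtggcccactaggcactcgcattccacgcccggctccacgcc
chrX:129803173-129803254: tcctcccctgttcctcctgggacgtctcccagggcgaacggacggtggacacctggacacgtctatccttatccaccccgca
chr1:85009290-85009375: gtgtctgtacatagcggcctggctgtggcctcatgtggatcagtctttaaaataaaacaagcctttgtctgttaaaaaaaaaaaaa

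The libraries were checked against their labels first. Setdb1 was at 8.76 and 10.1 FPKM in untreated cells, at 5.34 and 5.56 with PD0325901 and at 9.56 and 9.0 with TSA. It was listed at 0 in both 4OHT + PD0325901 libraries and in replicate 1 of 4OHT day 6, while the library labelled 4OHT day 6 replicate 2 had 5.30. The file of PD0325901 replicate 2 carries a title line naming the combined treatment and a description line naming PD0325901 alone. The sample label was followed. The summed FPKM of those of 12 interferon response genes that had a value was 49.8 and 57.1 in the PD0325901 libraries, against 2630 and 2660 in the 4OHT + PD0325901 libraries. Ifit3 had no value in PD0325901 replicate 1, and Ifit3 and Oas1a had none in the 4OHT + PD0325901 libraries. Dusp6, an ERK target gene, was at 9.82 and 3.94 FPKM with PD0325901 and at 5.43 and 6.81 with 4OHT + PD0325901, against 44.5 and 46.6 in untreated cells. Of 12 listed ERK target genes, 7 were lower with PD0325901 than in untreated cells by the test described below, and none higher. Egr1 was at 483 and 178 against 454 and 466, and Ier3 at 391 and 180 against 274 and 283. The 12 genes summed to 929 and 390 FPKM with PD0325901, against 895 and 921 in untreated cells. Fibroblast markers summed to between 2440 and 5610 FPKM in each library. By the same test against untreated cells, 4 of the 8 were lower with 4OHT and none higher. With TSA 2 were higher and 4 lower, and with PD0325901 3 were higher and none lower. Leukocyte markers reached 67.0 and 60.6 FPKM with TSA, mostly Cd68, against 3.21 to 14.2 elsewhere, and epithelial markers 31.2 and 32.1 with TSA against 0.167 to 2.35. Cd3e was at 0 in every library, and endothelial markers summed to at most 0.285. The part of these markers in the results was not tested.

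The lowest number of regions with a row was in PD0325901 and the highest in TSA. It was 1663 and 1620 in untreated cells, 1350 and 1553 with PD0325901, 2082 and 2128 with TSA, 1970 and 2044 with 4OHT, and 1607 and 1637 with 4OHT + PD0325901. Most regions were seen in few libraries. Of the 4006, 1284 had rows in 2 libraries and 283 in all 10. The 27264 unannotated rows all had status OK, and 9 fell under the limit. The highest of these was 0.995 FPKM, and the lowest row kept was 1.002. Regions ranged from 81 to 410118 bp with a median of 794.5 bp.

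FPKM depended strongly on the length of the assembled row. Rows of up to 100 bp had a median of 13469 FPKM, rows of 101 to 200 bp 277, rows of 201 to 500 bp 7.28, and rows of 501 to 1000 bp 2.98. The number of fragments behind them did not follow. The width of each row's confidence interval gives an effective fragment count, which for a Poisson count is the number of fragments. Its median was 14.7 in rows of up to 100 bp, 16, 13 and 18 in the next classes, and 121 in rows of 2001 to 5000 bp. Over all rows the median was 17, and 57.73% of rows had at most 20. The 10 libraries held 10700000 to 12500000 fragments by the same reckoning on annotated genes of a single exon. The fragment count is an estimate, and is too low for loci assembled with several isoforms, so FPM values below are too low there as well. It was within 0.01 of a whole number in 39.96% of rows, and under 1 in 1.897%.

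**Figure D1:**
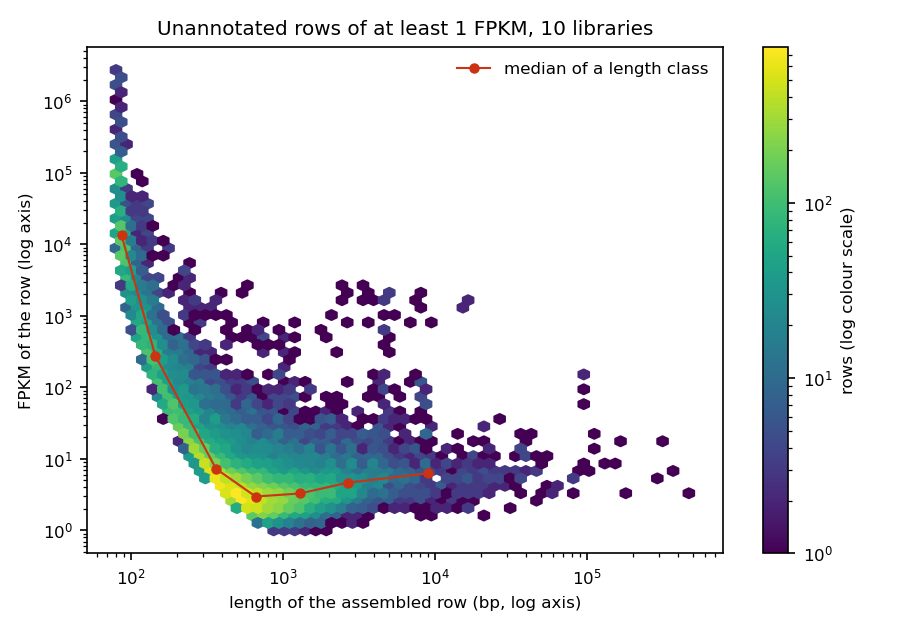
Length of each unannotated row in bp against its FPKM, both on log axes, for all 10 libraries. Colour gives the number of rows, and the red line joins the medians of 7 length classes, which fall from 13469 FPKM in rows of up to 100 bp to 2.98 in rows of 501 to 1000 bp.

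The regions with the highest mean FPKM were of this short kind. The region in an intron of Jarid2 at chr13:44964939-44965019 had 1330000 to 2750000 FPKM, from 188 to 394 effective fragments. Its values overlapped between conditions. The region in an intron of Cmss1 at chr16:57391221-57391304 had 40400 to 356000 FPKM from 26.9 to 52.8 effective fragments. A region at chr1:138261462-138261544, 18780 bp from Camsap2, reached 840000 FPKM. The letters printed above for the Jarid2 and Cmss1 regions read, as background, as stretches of the 28S ribosomal RNA, which was not checked against a reference. None of these regions had a row in any of the 9 total RNA libraries.

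Many of the regions lay in or beside annotated genes. By GENCODE annotation of mm9, 988 regions (24.66%) touched an exon of a protein-coding gene, 218 an exon of another gene type, and 877 (21.89%) only introns. A further 808 (20.17%) lay within 5 kb downstream of a gene and 258 within 5 kb upstream. The remaining 857 (21.39%) were farther than 5 kb from any gene. The files' own named loci overlapped 1392 regions (34.75%). An unannotated row can pass into a named locus from library to library. A region without a row lay at least 50% inside a named locus of that library in 42.2% of such cases. In 539 regions (13.5%) a row stood outside named loci in some library and a named locus covered the region without such a row in another. Of these, 536 overlapped no listed ERV. A value of 0 therefore says that no unannotated row was listed, and not that RNA was absent.

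ERV copies listed for the study overlapped 521 regions (13.01%). Class III of VL30 had 199 regions over 53 of its 66 elements, and class I had 116 regions over 52 of 71. Class IV had 41 regions over 9 of 25, and class II had 8 over 8 of 186. RLTR4, a family related to murine leukemia virus, had 83 regions over 44 of 51 elements. MMERVK10C, an endogenous betaretrovirus, had 71 over 39 of 167. IAPEz, the intracisternal A particle, had 3 over 3 of 593. Levels of a family are given below in FPM, effective fragments per 1000000 fragments of the library, summed over its regions. Fewer cells with RNA from a copy and less RNA per cell cannot be told apart in such bulk libraries. Reads that fit several places were placed once, so the share of each copy among near-identical copies is uncertain.

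VL30 U3 class I had the highest ERV levels, in the 4OHT day 6 and TSA libraries. Its regions summed to 101 and 95.7 FPM in untreated cells and to 1.82 and 5.30 with PD0325901. They summed to 4130 and 5210 at day 6 of 4OHT. With 4OHT + PD0325901 they summed to 193 and 254, and with TSA to 2900 and 4910. The 4OHT libraries lay far above those of the combined treatment, which in turn lay above untreated cells and cells with PD0325901 alone. All 52 elements had a row in both 4OHT libraries. The number was 18 and 23 with 4OHT + PD0325901, 46 and 47 with TSA, 11 in each untreated library, and 1 and 3 with PD0325901.

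Classes III and IV stood in the same order for these conditions but were higher with TSA than with 4OHT. Class III summed to 11 and 5.36 FPM in untreated cells, 1190 and 1310 with 4OHT, 47.2 and 48.1 with 4OHT + PD0325901, and 2200 and 3560 with TSA. With PD0325901 alone the sums were 1.08 and 0. Class IV summed to 2.59 and 1.81 in untreated cells, 280 and 374 with 4OHT, 16.9 and 10.9 with 4OHT + PD0325901, and 478 and 781 with TSA. Its sums with PD0325901 alone, 0.911 and 3.09, overlapped those of untreated cells. The few class II regions had 16.2 and 15.3 with 4OHT and 6.05 and 14.7 with TSA, and no row in the other libraries.

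MMERVK10C and RLTR4 did not follow VL30. MMERVK10C had no row in untreated or PD0325901 libraries and 1.40 and 1.87 FPM with TSA. It had 69.7 and 174 with 4OHT and 98.7 and 185 with 4OHT + PD0325901, so these groups overlapped. RLTR4 was highest in untreated cells, with 244 and 255. It was at 89.0 and 131 with PD0325901, at 125 and 181 with 4OHT, at 165 and 169 with the combination, and at 22.2 and 10.2 with TSA. IAPEz stayed at or under 4.67 in every library. Regions over no listed ERV summed to 21000 to 49600 in all libraries, and the 4OHT libraries, at 30700 and 30600, lay below all untreated, PD0325901 and 4OHT + PD0325901 libraries but within the range with TSA.

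**Figure D2:**
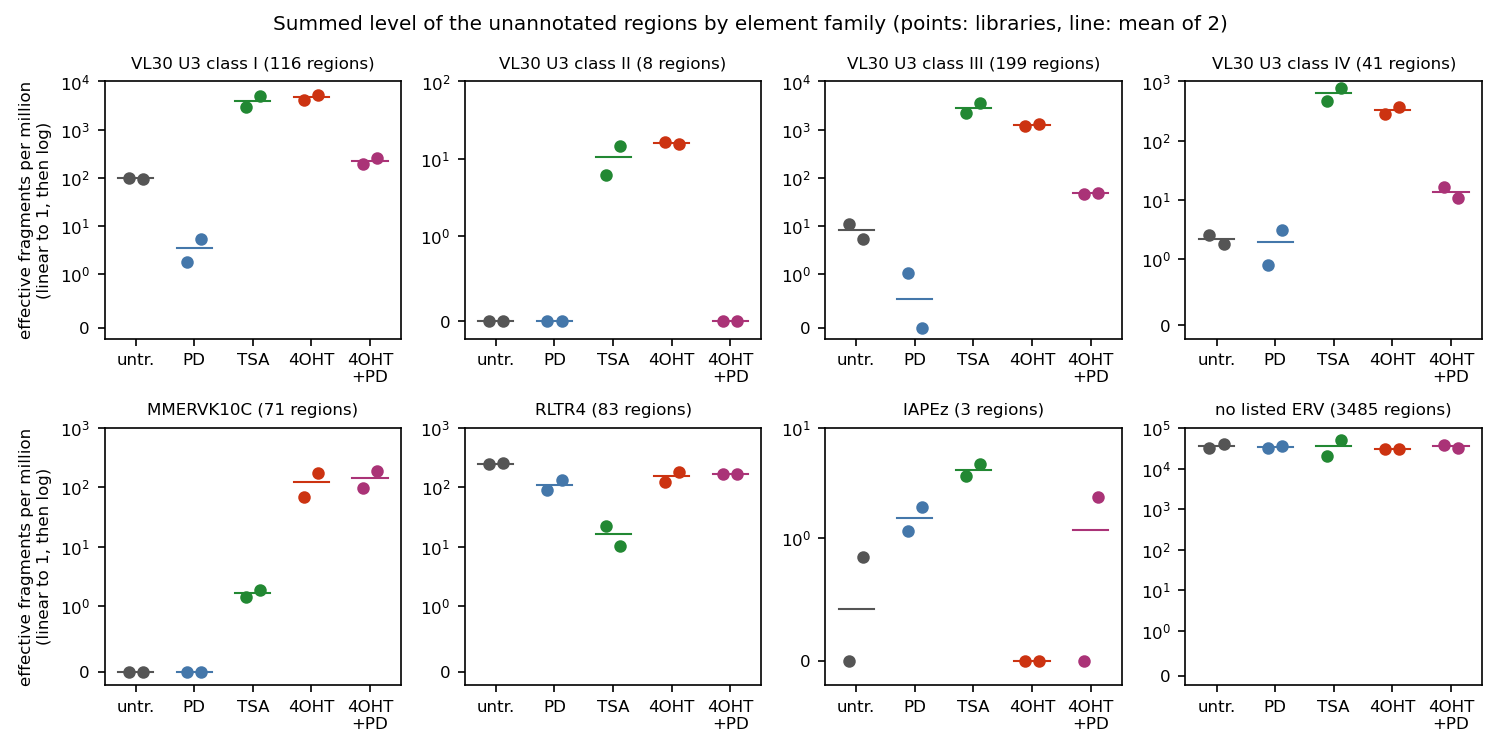
FPM, summed over the unannotated regions of each ERV family, for the 10 libraries. Each point is a library, each line the mean of 2, and each axis is linear to 1 and logarithmic above. VL30 classes I, III and IV are high with TSA and 4OHT and lower with 4OHT + PD0325901, whereas MMERVK10C overlaps between 4OHT and 4OHT + PD0325901.

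A few class I copies carried most of the signal. The 5 elements with the most fragments held 51.9% of the class's fragments at day 6 of 4OHT. Per kilobase of element, #38 on chromosome 11 was highest, with 151 and 150 FPM at day 6 of 4OHT. It had 8.72 and 8.44 in untreated cells, 0.391 and 0.264 with PD0325901, and 13.1 and 10.2 with 4OHT + PD0325901. In the TSA libraries it had no unannotated row, but in TSA replicate 2 the locus named Dhx40 covered it, at 198 FPKM. Element #9 on chromosome 2 had 93.5 and 103 with 4OHT and 326 and 516 with TSA, the highest of all. Element #23 had 83.9 and 120 with 4OHT but 3.01 and 5.74 with TSA, and #11 had 87.9 and 107 against 3.46 and 8.67. The treatment with the higher level thus differed between copies. The FPKM of the #9 region went the other way from its fragments, from 676 and 245 in untreated cells to 300 and 97.3 with 4OHT, while its effective fragments went from 236 and 234 to 5640 and 5380. Elements #70 and #71 on chromosome X share all of their 30-base runs and cannot be told apart.

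The 11 letters GGATATGACTC, searched on both strands, were found in 40 of 71 class I elements (56.3%) and in none of the elements of the other listed families. They were in 46 of the 4006 regions (1.1%), of which 1 overlapped no listed ERV. Its last 7 letters, ATGACTC, resemble the AP-1 site TGACTCA without its last letter. They were in 70 of 71 class I elements and in 536 regions (13.4%), but also in 93.1% of IAPEz and 92.4% of class III elements. In the first 300 bases they were in 66 of 71 class I elements (93.0%) and in 90 of the 1088 other listed elements (8.3%). Of the 52 class I elements with a region, 38 held the longer word in their first 300 bases. The 13 highest elements per kilobase at day 6 of 4OHT all held it, and the first that did not ranked 14th. Among elements of at least 2000 bp, the 21 with the word had a median of 22.2 FPM per kilobase (5.81 to 150). The 12 without it had 7.47 (2.25 to 20.2), and the ranges overlapped. With TSA the medians were 5.44 and 3.52. The word was chosen after the sequences and levels had been seen, elements of a class share ancestry, and no test was made.

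**Figure D3:**
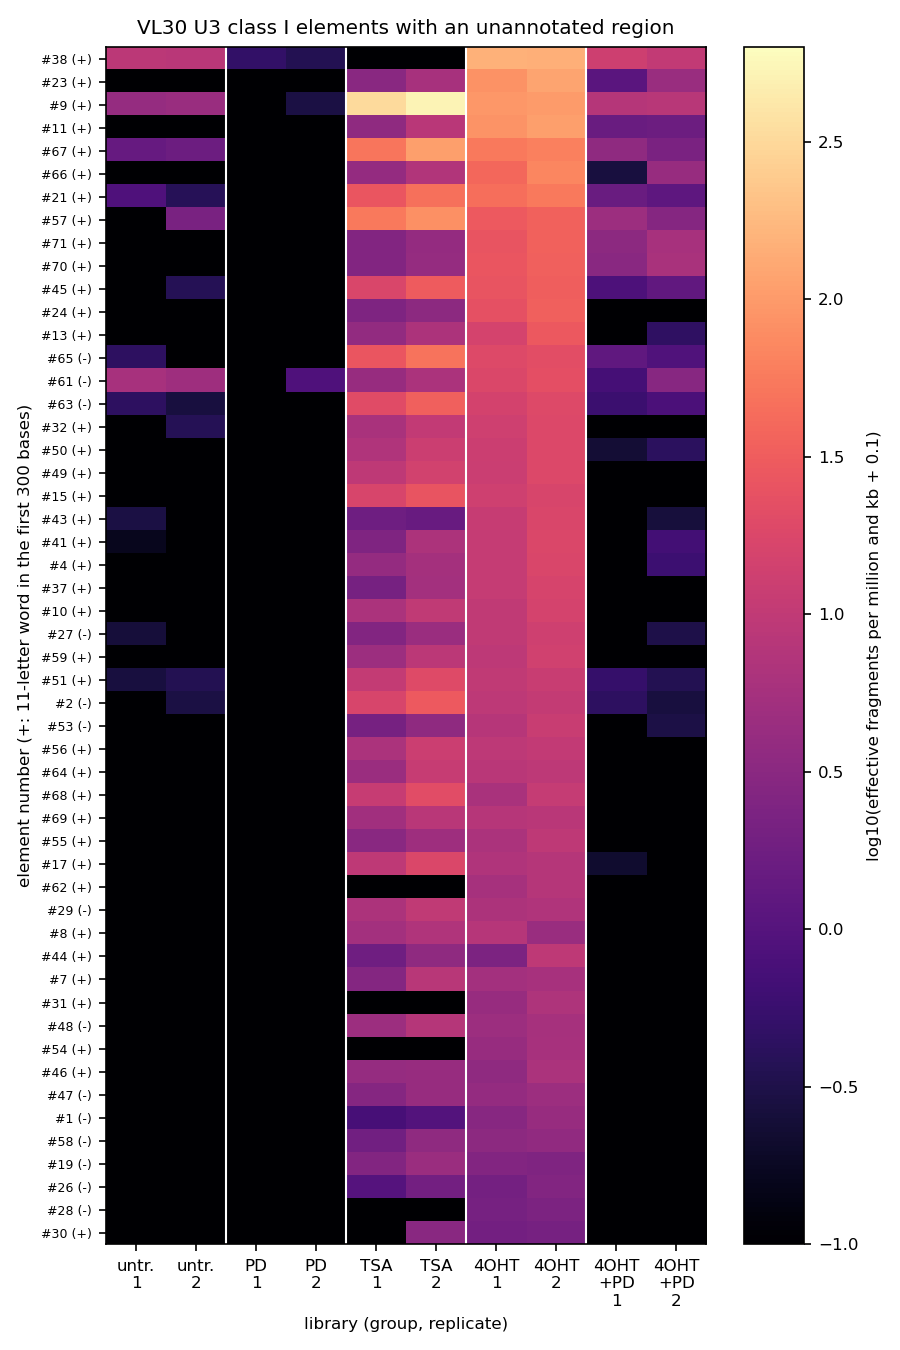
FPM per kilobase of element for the 52 VL30 U3 class I elements with an unannotated region, on a log10 colour scale with 0.1 added, in the 10 libraries. Elements are ordered by their mean at day 6 of 4OHT, and a plus marks those with the 11-letter word in the first 300 bases, which fill the top 13 rows.

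Conditions were then compared region by region, to ask what Setdb1 loss, MEK inhibition and deacetylase inhibition each did to unannotated RNA. The test was limma on log2(FPKM + 0.1) over 15508 features, the 4006 regions and 11502 annotated genes. Features were called at a Benjamini-Hochberg adjusted p under 0.05 and a change of at least 2-fold. Fold changes are on this scale, which understates the change of low values. Most calls came from regions listed in both libraries of 1 of the 2 conditions compared and in none of the other. Such a region had to differ, so those counts are given as a description.

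With Setdb1 deleted, 534 regions were higher at day 6 of 4OHT than in untreated cells and 173 were lower. Over all features 6.51% were called higher and 4.98% lower. Of the 534, 523 had rows in both 4OHT libraries and in neither untreated library. Of the 173, 165 had rows in both untreated libraries and in neither 4OHT library. Such regions can have rows in conditions outside the comparison. Among the 639 regions with a row in all 4 libraries, 9 were higher and 7 lower, and 54 had an unadjusted p under 0.05. VL30 made up much of the higher group. In class I, 92 of 116 regions were called higher and 1 lower, in class III 152 of 199 higher and in class IV 31 of 41 higher and 1 lower. MMERVK10C had 19 of 71 called higher. RLTR4 had 15 of 83 higher and 8 lower. Among 3485 regions over no listed ERV, 223 were higher (6.4%) and 163 lower (4.68%), close to the shares over all features. The median log2 change was 8.24 in class I and 8.11 in class III, and 0 over all features. In the untreated libraries 11 and 11 of the 116 class I regions had a row, and 7 and 4 of the 199 class III regions. These medians therefore depend on the 0.1 added and on row length, and are a description rather than a size of effect.

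Among regions with a row in all 4 libraries, the region in an intron of Dpyd at chr3:118555957-118557152 was higher in both libraries of each 4OHT condition. Dpyd encodes a pyrimidine-degrading enzyme. The region had 17.9 and 16.6 FPKM in untreated cells, 65.5 and 92.4 with 4OHT and 80.2 and 119 with 4OHT + PD0325901. It had 30.1 and 27.8 with PD0325901 alone and 5.55 and 5.14 with TSA. The log2 change with 4OHT was 2.17 (SE 0.227, limma adjusted p = 0.00143), and with 4OHT in the presence of PD0325901 it was 1.75 (SE 0.227, adjusted p = 0.00847). All libraries with 4OHT lay above all libraries without it. A region at chr13:55285959-55290593, 15838 bp downstream of Fgfr4, was high with 4OHT and TSA and overlapped no listed ERV. It had 20 and 12.3 FPKM in untreated cells, 110 and 141 with 4OHT, 6.96 and 5.52 with 4OHT + PD0325901, 243 and 100 with TSA, and no row with PD0325901 alone. It rose by 2.99 on the log2 scale with 4OHT (SE 0.439, limma adjusted p = 0.00595). Its effective fragments were 11.9 and 20 in untreated cells, 884 and 810 with 4OHT, and 81.3 and 60.3 with the combination, which by fragments lay above untreated cells and by FPKM below them.

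The region with the largest rise among the 639, over an RLTR4 copy at chr4:146595600-146596266, had 8.23 and 5.39 FPKM in untreated cells and 141 and 1970 with 4OHT (log2 change 6.29, SE 1.11, limma adjusted p = 0.0117). Its effective fragments were 11.9 and 21.0 against 16 and 14, with rows of 101 to 512 bp. Among the 3 that fell the most, the region in an intron of Matn2, a matrix protein gene, at chr15:34275713-34277509 had 187 and 895 FPKM in untreated cells and 25 and 12.2 with 4OHT. Its log2 change was -4.54 (SE 0.721, limma adjusted p = 0.00799), and its effective fragments went from 116 and 94.5 to 58.8 and 64.8. The region over an exon of Hes1, a Notch target, at chr16:30066409-30066957 changed by -3.64 (SE 0.881, limma adjusted p = 0.0339). A region at chr3:55384167-55384501 changed by -3.22 (SE 0.300, limma adjusted p = 0.000857), from rows of 142 to 310 bp. Its effective fragments went the other way, from 9.59 and 11 to 18 and 14. The calls of the Dpyd, Fgfr4 and chr3:55384167-55384501 regions held with each library left out, the Hes1 call was lost under 8 of 10, the Matn2 call without 4OHT day 6 replicate 2 (adjusted p = 0.0505), and the RLTR4 call was lost without either untreated library.

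PD0325901 added to 4OHT lowered most of the VL30 regions. Compared with 4OHT alone, 390 regions were lower and 68 higher, against 3.37% and 1.9% of all features. Of the 390, 370 had rows in both 4OHT libraries and in neither library of the combination. In class I 85 of 116 regions were lower and none higher, in class III 129 of 199 and in class IV 28 of 41. MMERVK10C had 1 lower and 5 higher of 71. Over no listed ERV, 137 of 3485 regions were lower (3.93%) and 62 higher. Among the 745 regions with a row in all 4 libraries, 19 were lower and 3 higher, and 55 had an unadjusted p under 0.05. The region over element #38 at chr11:86625245-86629899 had 146 and 141 FPKM with 4OHT and 12.6 and 9.96 with 4OHT + PD0325901 (log2 change -3.67, SE 0.712, limma adjusted p = 0.0301). The region downstream of Fgfr4 changed by -4.31 (SE 0.439, limma adjusted p = 0.00188). A region over class III element U3_III-10 at chr4:8322444-8322877 had 117 and 177 FPKM against 16.6 and 6.32 and changed by -3.80 (SE 0.518, limma adjusted p = 0.00731). The Fgfr4 call held with each library left out. The #38 call was lost under 8 of 10, with adjusted p up to 0.125, and with the replicate block (adjusted p = 0.053).

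The 3 regions that were higher with the combination were among the longer ones. One overlapped exons of A930015D03Rik at chr17:36134974-36142215, with 5.83 and 7.02 FPKM at 4OHT and 13.5 and 22.4 with PD0325901 added (log2 change 1.43, SE 0.276, limma adjusted p = 0.0295). One overlapped exons of Zfp451, a SUMO ligase gene, at chr1:33854186-33858702, with 9.26 and 8.92 against 17.0 and 23.0 (log2 change 1.11, SE 0.233, limma adjusted p = 0.0394). In these, effective fragments overlapped between the conditions. They were 84.4 and 152 against 28.0 and 126 in the first, and 113 and 205 against 181 and 134 in the second. The third lay 19983 bp from Tlr1 at chr5:65287851-65296066, with 3.29 and 3.27 FPKM against 7.57 and 7.41 (log2 change 1.17, SE 0.234, limma adjusted p = 0.0341). It had rows only in the 4 libraries with 4OHT, and its effective fragments, 49.9 and 23.6 against 288 and 167, did not overlap. Each of the 3 calls was lost with some library left out, under 9 (A930015D03Rik), 8 (Zfp451) and 2 (Tlr1) of 10, and the Tlr1 call also with the replicate block (adjusted p = 0.0567).

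With PD0325901 present, fewer regions were called with 4OHT. Compared with PD0325901 alone, 168 regions were higher with 4OHT + PD0325901 and 77 lower, against 2.91% and 1.24% of all features. Rows in both libraries of 1 of the 2 conditions compared accounted for 163 of the 168 and 72 of the 77. Class I had 11 of 116 higher, class III 11 of 199 and class IV 2 of 41, with none lower. These counts do not measure the size of the change. The class I sum went from 1.82 and 5.30 to 193 and 254 FPM with PD0325901 present. Without PD0325901 it went from 101 and 95.7 to 4130 and 5210 FPM. MMERVK10C had 22 of 71 higher (31.0%). In the 573 regions with a row in all 4 libraries, 4 were higher and 5 lower, and 43 had an unadjusted p under 0.05. The Zfp451 region changed by 1.78 (SE 0.233, limma adjusted p = 0.00895) and the A930015D03Rik region by 1.66 (SE 0.276, limma adjusted p = 0.0217). The calls of both were lost without PD0325901 replicate 2, as was that of the Dpyd region (adjusted p = 0.0535). The Dpyd call was also lost with FPM, with regions fitted without genes and with the groups compared alone (limma adjusted p up to 0.145). The lowest was a region 1461 bp downstream of Arsj, a sulfatase gene, at chr3:126144754-126148117. It had 12.5 and 33.2 FPKM with PD0325901 and 3.02 and 1.80 with the combination (log2 change -3.08, SE 0.544, limma adjusted p = 0.0262). This call was lost under 5 of 10 libraries left out, with adjusted p up to 0.115.

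PD0325901 alone changed few regions. Against untreated cells 81 regions were higher and 131 lower, against 2.33% and 3.1% of all features. Among 3485 regions over no listed ERV, 80 were higher (2.3%) and 118 lower (3.39%), close to the shares over all features. In class I 4 of 116 were lower and in class III 1 of 199. Of the 582 regions with a row in all 4 libraries, 3 were higher and none lower by limma, and 36 had an unadjusted p under 0.05. The region over exons of Cpne1 and Rbm12 at chr2:155917908-155920234 had 12.1 and 3.71 FPKM in untreated cells and 63.6 and 57.9 with PD0325901 (log2 change 3.16, SE 0.627, limma adjusted p = 0.0309). The region downstream of Arsj rose from 4.90 and 2.65 FPKM in untreated cells (log2 change 2.47, SE 0.544, limma adjusted p = 0.0435). A region of 25695 bp beside Gm17501 at chr3:145315075-145340769 had 12.3 and 13.1 FPKM against 63.9 and 30.8 (log2 change 1.79, SE 0.363, limma adjusted p = 0.0331). These 3 calls were lost under 7, 9 and 7 of the 10 libraries left out, with adjusted p up to 0.217.

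TSA changed the most regions, and the most annotated genes. It raised 858 regions and lowered 304, against 19.2% and 11% of all features. Of the 858, 828 had rows in both TSA libraries and in neither untreated library. Class III had 183 of 199 regions higher, class I 73 of 116 and class IV 32 of 41. RLTR4 had 21 of 83 lower and none higher. Among the 558 regions with a row in all 4 libraries, 16 were higher and 17 lower, and 64 had an unadjusted p under 0.05. A region over class I element #51 at chr13:68437254-68439950 had 9.41 and 16.6 FPKM in untreated cells and 3070 and 2220 with TSA. Its log2 change was 7.69 (SE 1.98, limma adjusted p = 0.0199), and its effective fragments went from 11 and 14.7 to 609 and 1140. A region over class III element U3_III-14 at chr4:148808546-148811775 had 11.2 and 11.5 FPKM against 1230 and 1520 (log2 change 6.90, SE 2.13, limma adjusted p = 0.0385). Its effective fragments were 35 and 13 against 1160 and 1750. The region with the largest rise among these 558, 8.47 at chr1:173416457-173419930 (SE 2.24, limma adjusted p = 0.0219), had 162 and 145 effective fragments against 121 and 103. The 3 lowest with TSA, in an intron of Srsf7 (-4.09, SE 0.417, limma adjusted p = 0.000435), near Zbtb45 (-3.10, SE 0.663, adjusted p = 0.00958) and in an exon of Mum1 (-2.97, SE 0.256, adjusted p = 0.000214), did not fall in effective fragments. In the Srsf7 region these went from 18 and 18 to 58.2 and 39.5, and in the Mum1 region they overlapped. Without either TSA library or either untreated library the #51 and U3_III-14 calls were lost, with adjusted p up to 0.154.

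**Figure D4:**
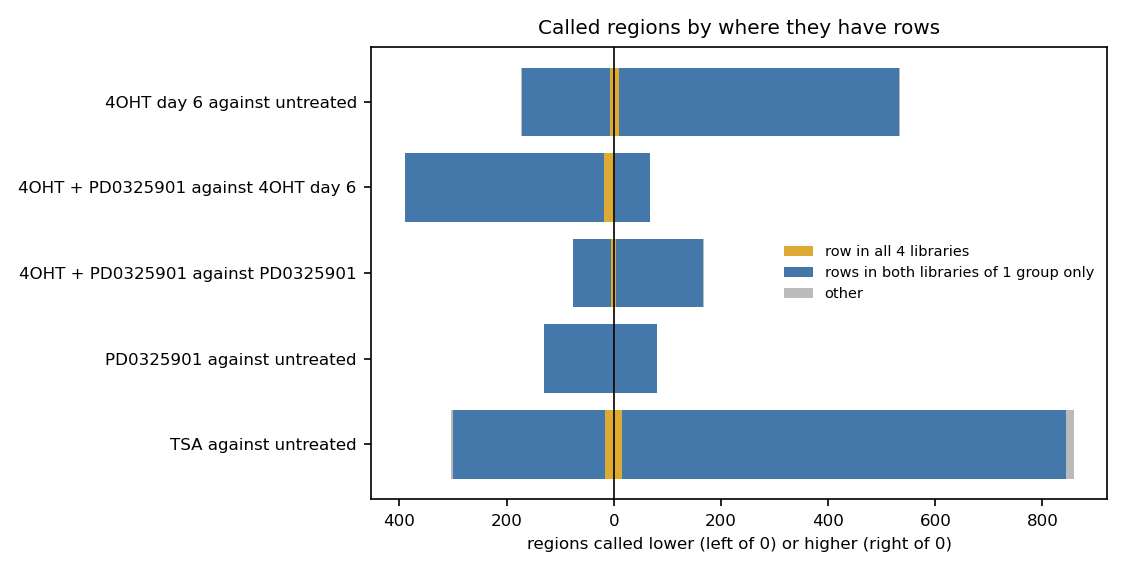
Number of unannotated regions called higher (right of 0) or lower (left of 0) by limma in the 5 comparisons. Colours separate regions with a row in all 4 libraries from regions with rows in both libraries of 1 of the 2 conditions compared, which make up most calls, such as 523 of 534 higher at day 6 of 4OHT.

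The change with 4OHT differed with and without PD0325901 in 543 regions by the limma interaction contrast. It was higher with PD0325901 in 155 and lower in 388, against 1.7% and 2.74% of all features. VL30 class I had 70 of 116 lower and 2 higher, and class III 113 of 199 lower. With PD0325901 alone, rows were listed in 1 and 3 of the 116 class I regions and in 1 and 0 of the 199. Most of these VL30 values therefore rest on the 0.1 added where no row was listed. Among 383 regions with a row in all 8 libraries of these conditions, 3 were lower and none higher by limma, and 13 had an unadjusted p under 0.05. The region over an exon of Grem1, a BMP antagonist gene, at chr2:113586335-113588458 had 23.4 FPKM in each untreated library and 78.4 and 80.7 with 4OHT. It had 31.6 and 40.9 with PD0325901 and 30.6 and 33.1 with 4OHT + PD0325901, which overlapped, and 7.94 and 5.40 with TSA. The interaction was -1.93 (SE 0.279, limma adjusted p = 0.0110). Its rows spanned 2020 to 2124 bp and its effective fragments, 607 and 546 against 2070 and 1900 with 4OHT, followed the FPKM. The region in an intron of Atg3 at chr16:45186436-45187620 (-2.16, SE 0.388, limma adjusted p = 0.0299) and the region over an exon of Peg3 at chr7:6656607-6658744 (-1.19, SE 0.222, limma adjusted p = 0.0350) did not keep this direction in effective fragments. The Grem1 call was lost without either untreated library, with limma adjusted p up to 0.0537, and the other calls under 8 and 9 of 10 libraries left out. The Atg3 call was also lost with the replicate block (adjusted p = 0.0583). The lowest interaction values of all, listed without a test, lay in an exon of Gusb (-20.27), at chrX:129803173-129803254 (-19.04) and 364 bp downstream of Gm9800 (-18.42). The highest lay in an intron of Pisd (23.14), an exon of Rpl15 (18.86) and an intron of Tcf25 (18.77). All had rows of 80 to 474 bp and gaps in some libraries.

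**Figure D5:**
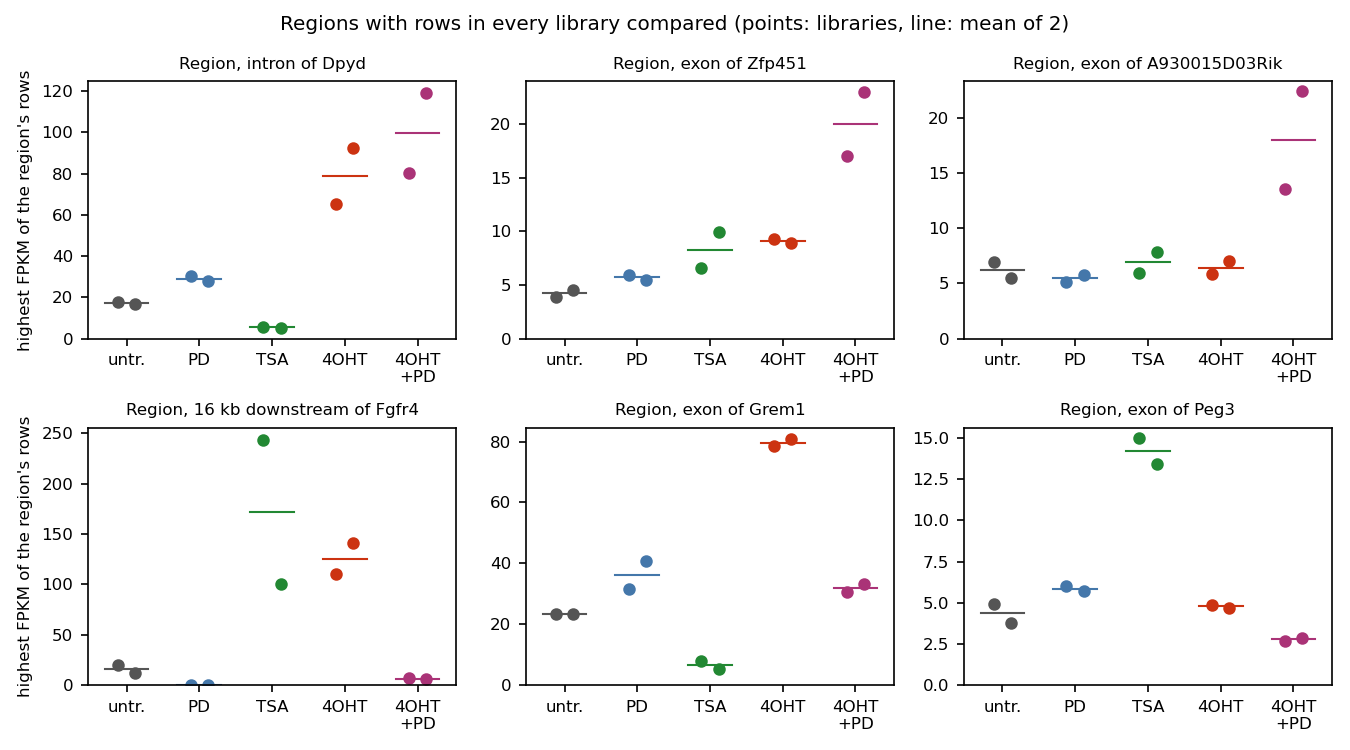
Highest FPKM of each library's rows in 6 named regions, on linear axes from 0. Each point is a library and each line the mean of 2. The Dpyd region is higher in all 4 libraries with 4OHT, and the region downstream of Fgfr4 and the Grem1 region are lower with 4OHT + PD0325901 than with 4OHT.

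The regions with the largest fold changes were again very short and rested on few fragments. They are listed as values only, since they had rows in a single condition of the comparison. The region over a class II VL30 element at chrX:129803173-129803254 had 114000 and 293000 FPKM with TSA and 70000 and 41300 with 4OHT, from 16 and 40 and from 9.59 and 13 effective fragments, and no row elsewhere. Its letters occur at 14 places in mm9, so its reads cannot be placed at a single copy. A region 4276 bp downstream of Vim at chr2:13508730-13508816 had rows in all untreated, PD0325901 and 4OHT + PD0325901 libraries, at 14600 to 59500 FPKM. It had none with 4OHT or TSA, and its effective fragments were 9.59 to 18. The region in an exon of C130026I21Rik at chr1:85009290-85009375 had rows in the 4 libraries with 4OHT, at 11300 to 22600 FPKM and 9.59 to 14 effective fragments. Its letters occur at 3 places in mm9, so its reads cannot be placed at a single copy either. A region over class IV element U3_IV-14 at chr7:29046676-29046784 had 10100 and 24200 FPKM with TSA and 6800 and 14100 with 4OHT, from 33.4 to 188 effective fragments.

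Regions without a listed ERV were set beside the gene they lay in or within 5 kb of. Of 2048 such regions with a tested gene, 70 were higher with 4OHT, and the gene was itself called higher for 14 of them (20%), against 4.6% of all 2048. With TSA this held for 90 of 308 higher regions (29.2%, against 13.9%) and 43 of 149 lower ones (28.9%, against 12.2%). Region and gene share the libraries and can share fragments. Beside interferon response genes, a region 649 bp downstream of Ifit1 at chr19:34725149-34726473 had 2.29 and 7.35 FPKM with 4OHT and no other row. Another, 3572 bp downstream at chr19:34728072-34729142, had 1.89 and 3.88 FPKM with 4OHT + PD0325901 and no other row. A region in an intron of Ddx58 at chr4:40161159-40161336 had rows in 7 libraries of untreated, PD0325901, TSA and 4OHT cells and was called in no comparison. A region 2292 bp upstream of Oasl2 at chr5:115341554-115344650 had 323 and 353 effective fragments with 4OHT and 411 and 724 with TSA, and none elsewhere. These genes are induced by interferon.

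The siRNA experiment repeated the comparison of 4OHT day 6 in libraries the choice of regions had not used, with a control siRNA in both arms and 2 libraries in each. Of the 4006 regions 3428 had a row there. limma called 443 higher (12.9%) and 77 lower (2.25%), against 4.52% and 2.62% of all 14190 features tested. Regions with rows at day 6 of 4OHT but not in untreated cells could enter the list through the 4OHT libraries. A share of higher calls above that of all features is therefore partly set by the choice, and is a description. The same holds for the total RNA counts below. Of the 534 regions higher in the inhibitor experiment, 522 had a row, 303 were called higher (58.0%) and 1 lower. These 303 were 68.4% of the 443. Of the 173 that were lower, 151 had a row, 14 were called lower (9.3%) and 6 higher. The 14 were 18.2% of the 77. By family, 83 of 116 class I regions were higher, 136 of 199 class III, 28 of 40 class IV, 12 of 69 MMERVK10C and 7 of 82 RLTR4, and of these families only RLTR4 had a region called lower, with 1. Among the 762 regions with a row in all 4 libraries, 15 were higher and 5 lower. The Dpyd region had 35.2 and 27.9 FPKM without 4OHT and 104 and 82.3 with it (log2 change 1.56, SE 0.168, limma adjusted p = 0.00528). The region downstream of Fgfr4 had 4.03 and 8.03 against 38.1 and 174 (log2 change 3.82, SE 1.34, limma adjusted p = 0.135). The region of #9 had 216 and 165 FPKM against 78.1 and 96.3 there (log2 change -1.12, SE 0.334, limma adjusted p = 0.0959). The Grem1 region had 39 and 34 against 56.7 and 13.4, which overlapped (limma adjusted p = 0.757).

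In total RNA, 1551 of the regions had a row in untreated cells or at day 5 of 4OHT, with 3 libraries each. Every day 5 library lay above every untreated library in 160 regions (10.3%), and below in 53 (3.42%). In class I this was 12 of 31 above and none below, and each has an exact two-sided permutation p of 0.1, the smallest that 3 against 3 allows. Class III had 13 of 45 above and 3 below, MMERVK10C 9 of 27 above and none below, RLTR4 2 of 34 above, and class IV 1 of 10 above and 1 below. Over no listed ERV it was 122 of 1401 above and 49 below. The region of #67 at chr19:4061397-4066387 had 1.10, 1.30 and 1.32 FPKM in untreated cells, 119, 108 and 119 at day 5, and 10.5, 10.2 and 10.7 in long-term knockout cells. The region of #11 at chr2:81829013-81834504 had 0.380, 0.371 and 0.400, then 63.3, 64.5 and 64.8, then 10.2, 9.84 and 9.60. The region of #9 at chr2:75476167-75480933 had 3.06, 2.95 and 2.41 against 98.1, 112 and 95.2 at day 5. The region of #38 had 4.87, 4.93 and 5.57 FPKM in untreated cells, 0, 0 and 258 at day 5, which overlapped, and 39.7, 39.2 and 37.7 in long-term knockout cells. The Grem1 region had 10.1, 10.4 and 9.47 against 11.2, 10.6 and 10.0 at day 5, which overlapped. The Dpyd region had 8.62, 10.1 and 9.96 FPKM in untreated cells and 45.6, 50.7 and 50.4 at day 5, and was listed at 0 in the 3 long-term knockout libraries.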

How the data were processed

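The FPKM values were made by the authors, who aligned reads of TruSeq RNA libraries to mm9 with TopHat2 2.0.12, placing a read with several hits once, ran Cufflinks and deposited a table per library with a value and its confidence interval per gene or assembled locus. No read counts were used. Regions were formed as described above. FPKM was log2 transformed with a pseudocount of 0.1. Annotated genes with at least 1 FPKM in at least 2 libraries entered the same fit (limma 3.58.1, trended variances, R 4.3.3, 5 conditions, all 10 libraries), and p-values were adjusted over all 15508 features. The siRNA libraries were fitted in the same way, and total RNA was compared by exact permutation. Total RNA tables carry no gene names, so rows were matched where at least 50% lay inside a region. Effective fragments were (2 FPKM / (upper bound - FPKM)) squared. Sequences came from the mm9 genome and gene positions from its GENCODE annotation.

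Named regions were the 5 with the highest mean FPKM, for each comparison the 3 highest and 3 lowest called fold changes whose conditions did not overlap, taken once among regions with a row in every library and once among regions with rows in a single condition, and the regions over class I VL30 elements, of which those of the highest elements are printed. Some regions that this rule names are not reported here. Regions with the interaction called among those with rows in all 8 libraries, those beside interferon genes and the 11-letter word were chosen after values were seen. Members and lists were chosen with earlier results of these data known. Data were simulated from each feature's mean over the 10 libraries and its spread in the fit of the 5 conditions. Changes were planted in the 4OHT day 6 libraries, only in regions with a row in all 10 libraries. For 4OHT day 6 against untreated, limma called 27 of 100 regions with a log2 change of 3 and 6 of 100 with 1.5, and 4 unchanged features of 15508. This does not describe regions with rows in a single condition, which made up most calls. Alternatives were another pseudocount, row and library limits, sums in place of the highest row, regions outside annotated loci, quantile normalization, the groups compared alone, a replicate block, each library left out and, added after seeing the data, FPM and rows of at least 300 bp. The deposited tables of the authors' own comparisons, which hold fold changes and p-values, were not used.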

Additional observations from a re-analysis of the deposited data

Results flagged for a closer look

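The change with 4OHT differed with and without PD0325901 in 543 regions by the test of the difference, 155 higher and 388 lower, against 1.7% and 2.74% of all features. Only 3 of the 543 had a row in all 8 libraries concerned, and the others rest on regions without a row in some of them. The 3 were the region in an intron of Atg3 (-2.16 on the log2 scale), the region over an exon of Grem1 (-1.93) and the region over an exon of Peg3 (-1.19). The Atg3 and Peg3 values turn direction in effective fragments (0.45 and 0.67), and their calls were lost under 8 and 9 of 10 libraries left out. In the siRNA experiment, libraries with siRNA against Dnmt1 took part in no comparison above. Both lay above both control siRNA libraries in 39 of 62 class I VL30 regions with a row, and below in 2. In class III this was 106 of 138 and in MMERVK10C 1 of 3, against 19% above and 18.1% below of all 2670 regions with a row. In total RNA, the long-term knockout libraries lay above every untreated library in 16 of 34 class I regions and below in none. In class III this was 7 of 50 above and 1 below and in MMERVK10C 6 of 27 above, against 8.32% above and 8.77% below of all 1550 regions with a row. The cause of these values was not tested. Single libraries were not searched for outliers within a group, since that test was made only from 4 libraries on.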

How the results depend on the processing

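The count of calls depended most on row length and on the limits for rows. With only regions whose rows were all at least 300 bp, added after seeing the data, 125 regions were higher with 4OHT than in untreated cells. With the same limit 81 were lower with 4OHT + PD0325901 than with 4OHT, 81 were higher than with PD0325901, 53 were higher and 83 lower with PD0325901 than in untreated cells, 403 were higher and 167 lower with TSA, and 218 had a called interaction. The share of calls that were higher with 4OHT then fell from 75.53% to 51.65%, and the share higher with the combination rose from 14.85% to 38.64%. With rows of at least 5 FPKM the counts were 84 lower for 4OHT, 30 higher for the combination against 4OHT, 103 higher and 31 lower for it against PD0325901, 32 higher and 75 lower for PD0325901, and 557 higher and 161 lower for TSA. With regions in at least 4 libraries they were 90 lower for 4OHT, 30 higher for the combination against 4OHT, 44 lower against PD0325901, 45 higher and 63 lower for PD0325901, 388 higher for TSA, and 297 for the interaction. Outside annotated loci they were 107 lower for 4OHT, 40 lower for the combination against PD0325901, 44 higher and 80 lower for PD0325901, and 201 lower for TSA. These settings tested fewer regions. With only the groups compared in the fit, 108 were higher for the combination against 4OHT, 119 lower against PD0325901, and 203 lower for PD0325901; the cause was not tested.

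FPM in place of FPKM turned the direction of 13 results on named regions. These were 4OHT against untreated at chr4:146595600-146596266 (-0.043) and chr3:55384167-55384501 (0.61). For the combination they were the A930015D03Rik region against 4OHT (-0.945) and against PD0325901 (-0.64), the Zfp451 region against 4OHT (-0.005), chr3:55382342-55382826 against PD0325901 (1.31) and the Atg3 region against PD0325901 (0.27). With TSA they were chr1:173416457-173419930 (-0.484) and the Srsf7 (1.33), Zbtb45 (0.85) and Mum1 (0.40) regions, and for the interaction Atg3 (0.45) and Peg3 (0.67). No other setting turned a direction. Of the other results on named regions over these settings, 359 kept direction and call and 62 lost the call. The 359 include a setting without the fold limit, under which no call could be lost. They also include a row limit of 0.1 FPKM, which left every count of calls unchanged. With a library left out, 192 kept the call, 108 lost it and none turned.

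Leaving out each library gave, for 4OHT, 467 to 550 higher and 151 to 186 lower. It gave 81 to 116 higher and 381 to 413 lower for the combination against 4OHT, with 106 and 108 higher without 4OHT replicate 1 or 2 and 116 without 4OHT + PD0325901 replicate 1, and 173 to 230 higher and 90 to 141 lower against PD0325901, with 141 without PD0325901 replicate 1. It gave 84 to 115 higher and 148 to 188 lower for PD0325901, 733 to 846 higher and 210 to 309 lower for TSA, and 551 to 617 for the interaction. In the siRNA libraries it gave 346 to 576 higher and 101 to 152 lower, with 152 and 145 without siCtrl replicate 1 or 2 and 133 and 149 without 4OHT + siCtrl replicate 1 or 2. A group left with a single library is assumed to vary like the others. Libraries with the same replicate number deviated together across genes (r over 0.1) in 3 of 10 pairs of conditions, which are all the pairs among PD0325901, 4OHT day 6 and 4OHT + PD0325901 (0.227, 0.206 and 0.266). Across the 283 regions with a row in every library these were -0.22, 0.125 and -0.098. The numbers may therefore pair libraries in these 3 conditions, which the labels do not say, and not in untreated and TSA cells. With the replicate block the counts were 519 and 165 for 4OHT, 66 and 384 for the combination against 4OHT, 166 and 77 against PD0325901, 78 and 130 for PD0325901, 849 and 299 for TSA, and 527 for the interaction. With the block 6 calls on named regions were lost, those of #38 (adjusted p = 0.053) and the Tlr1 region (0.0567) for the combination against 4OHT, the Cpne1 (0.0514) and Arsj (0.0666) regions for PD0325901, U3_III-14 for TSA (0.0586) and Atg3 for the interaction (0.0583). It changed no other call on a named region. Quantile normalization shifted the median of all features by -0.19 for 4OHT.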
